A study of Mus musculus with 15 samples.

Results

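The genes described here are 8 genes of cholesterol synthesis and its control by the transcription factor SREBP2: the factor itself (Srebf2), its brake Insig1, and the enzyme genes Hmgcs1, Idi1, Fdft1, Sqle, Lss and Dhcr7. They were taken by name, and 7 of the 8 were matched by Ensembl identifier among the 37620 genes counted in the ileum, the last stretch of the small intestine. The expression of Hmgcs1 was not analysed here. The data are 15 libraries, each titled like a single animal, and the matched genes passed the filter on low counts in each comparison.

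Cells make cholesterol from acetyl-CoA through mevalonate, squalene and lanosterol. SREBP2 is made as a protein of the endoplasmic reticulum membrane; when sterols are scarce, its escort SCAP carries it to the Golgi, proteases release it, and it switches on nearly the whole pathway. INSIG1 holds SCAP back when sterols are plentiful, and its gene is itself a target of SREBP2. The small intestine both absorbs cholesterol, through NPC1L1, and makes it.

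The study asked which ileal genes depend on Rfx6, a transcription factor of hormone-producing cells of the gut. Animals labelled mutant were Rfx6f/f Vilin-CreERT2: both Rfx6 alleles were floxed, and a tamoxifen-activated Cre was under the Villin promoter, which works in the epithelium of the gut and not in the muscle, immune or nerve cells of the gut wall. Controls had no Cre and were Rfx6f/f, except for controls 2 and 3 of the 3-month cohort, which were Rfx6f/+. Adults of every group received tamoxifen (10 mg by gavage, 2 times a day, on alternate days over 5 days), and ileum was taken 8 days (3 controls, 4 mutants) or 3 months later (4 and 4). No group of Cre carriers without floxed Rfx6 was analysed here, so an effect of Cre itself and an effect of Rfx6 loss cannot be told apart. Each cohort was deposited as its own table, so time and cohort cannot be told apart either. The labels do not say whether animals of a group shared a litter, cage or extraction method, so p-values measure the spread between these libraries only.

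Library totals were 26078462 to 54468586 counts. The ileal markers were present in every library, with a summed level of 4900 to 9130 counts per 1000000 (CPM) over 7 genes. Rfx6 itself did not fall in the libraries labelled mutant. It had 38 to 52 counts in the 3-month controls and 65 to 106 in the 3-month mutants (log2 fold change 0.72, SE 0.17, adjusted p = 0.0347 by the edgeR quasi-likelihood test), and at 8 days the log2 fold change was 0.19 (SE 0.18, adjusted p = 0.867). The counts cover whole genes, so reads from exons outside the floxed part are included, and the directions below are those of the libraries labelled mutant.

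The promoters of Insig1, Cyp51 and Msmo1, which were higher together in the 3-month mutants, are given as the 250 bases before the RefSeq start on GRCm38.p6, read 5′ to 3′ along the gene. Insig1 lies at chr5:28071162-28071411 on the plus strand, Cyp51 at chr5:4104698-4104947 on the minus strand and Msmo1 at chr8:64733579-64733828 on the minus strand. Capitals mark CCAAT, the box bound by NF-Y, and GGGCGG, the box bound by Sp1, or their reverse complements. These are the factors known to act beside SREBP2 at sterol genes.
Insig1: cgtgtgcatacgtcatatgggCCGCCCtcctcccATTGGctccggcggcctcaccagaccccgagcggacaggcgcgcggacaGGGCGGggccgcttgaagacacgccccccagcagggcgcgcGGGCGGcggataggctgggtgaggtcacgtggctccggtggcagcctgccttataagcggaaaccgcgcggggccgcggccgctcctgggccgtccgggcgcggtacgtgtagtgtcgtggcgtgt
Cyp51: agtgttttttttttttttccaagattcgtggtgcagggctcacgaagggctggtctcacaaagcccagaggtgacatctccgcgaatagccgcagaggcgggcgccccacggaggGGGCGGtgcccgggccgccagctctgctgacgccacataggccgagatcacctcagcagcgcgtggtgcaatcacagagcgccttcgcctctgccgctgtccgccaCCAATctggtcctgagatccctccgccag
Msmo1: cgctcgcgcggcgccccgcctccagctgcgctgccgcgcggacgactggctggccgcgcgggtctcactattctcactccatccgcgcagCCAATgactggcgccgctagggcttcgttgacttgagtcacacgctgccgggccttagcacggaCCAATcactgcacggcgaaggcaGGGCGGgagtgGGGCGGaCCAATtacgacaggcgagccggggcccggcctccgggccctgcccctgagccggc

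All 3 sequences carry at least 1 CCAAT box and at least 1 Sp1 box. Over the 300-base promoters of the RefSeq table (250 bases before the start and 50 after, both strands searched), the CCAAT box stood in 6 of the 8 promoters found for 6 of the listed genes and in 37.4% of all 32851 promoters. The Sp1 box stood in 7 of those 8 and in 35.7% of all. Each box also stood in 16 of the 20 promoters (80%) found for 17 sterol synthesis enzymes, some of them among the listed genes. Ebp, Lbr and Tm7sf2, whose log2 fold changes at 3 months were negative, carry both boxes in this window. The boxes were thus not particular to the genes that were higher together. Dhcr7 gave 3 of the 8 promoters, and Sqle and Fdft1 had no entry in the table.

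The sterol regulatory element was searched as TCACNCCAC, which overlaps the shorter CACCCCAC where N is C. It was found in 1.24% of all promoters and, among the listed genes, in that of Hmgcs1 alone. The 60-base stretch that holds it, chr13:119690191-119690250 on the plus strand of GRCm38.p6, is shown with the element in capitals.
Hmgcs1: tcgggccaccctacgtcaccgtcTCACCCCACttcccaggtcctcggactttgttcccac
A match is a description of letters, and no match says only that these letters are not in the window.

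Srebf2, the gene of the factor, stood at different levels in the 2 cohorts and overlapped between the genotypes within each. At 8 days, controls 1 to 3 had 292, 264 and 278 CPM, and mutants 1 to 4 had 282, 270, 316 and 315 CPM. At 3 months, controls 1 to 4 had 146, 119, 122 and 130 CPM, and mutants 1 to 4 had 147, 139, 128 and 142 CPM. Every 8-day library was above every 3-month library, whereas mutants and controls overlapped within each cohort. The log2 fold change of mutant over control was 0.09 at 8 days (95% interval -0.09 to 0.27, adjusted p = 0.853) and 0.12 at 3 months (-0.05 to 0.30, adjusted p = 0.317), by the edgeR quasi-likelihood test with Benjamini-Hochberg adjustment over all genes tested. No test was made between the cohorts.

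Insig1 was higher in the mutants at 3 months, with a fold of 1.58 (95% interval 1.23 to 2.04). The 3-month controls 1 to 4 had 202, 131, 135 and 158 CPM, and the 3-month mutants 1 to 4 had 236, 204, 236 and 304 CPM. The lowest mutant was just above the highest control, so the groups did not overlap, as in 8.76% of all genes in this direction and 10.6% in the other. Mutant 4 stood farthest out. The log2 fold change was 0.66 (SE 0.16, adjusted p = 0.0396, edgeR quasi-likelihood test).

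At 8 days Insig1 had 107, 146 and 122 CPM in controls 1 to 3 and 166, 150, 150 and 133 CPM in mutants 1 to 4. Only mutant 4 fell within the range of the controls. The log2 fold change was 0.26 (SE 0.12, adjusted p = 0.595). The change at 3 months minus that at 8 days was 0.38 on the log2 scale, with a 95% interval of -0.08 to 0.85 (adjusted p = 0.40), so a difference between the times was not shown.

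**Figure D1:**
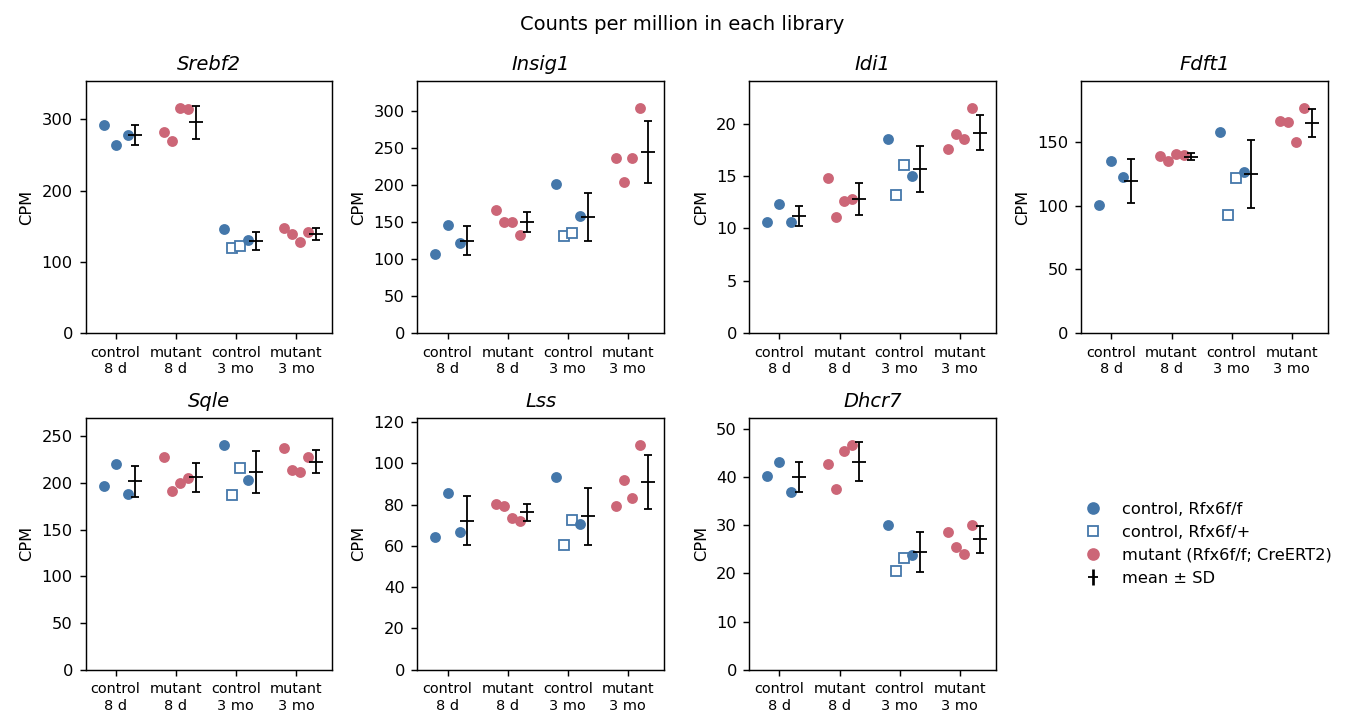
Level of each matched gene in every library, in TMM-scaled CPM (vertical axis, linear, from 0), by genotype and time; points are libraries, open squares are Rfx6f/+ controls, and bars are the mean and SD of each group. Srebf2 and Dhcr7 lie lower in all 3-month libraries than in all 8-day libraries, and Insig1 separates mutants (204 to 304) from controls (131 to 202) at 3 months.

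The Insig1 call changed with the animals in the fit. It was kept when control 1 (adjusted p = 0.0356) or mutant 2 (0.0346) was left out and lost when any of the 6 other 3-month libraries was: control 2 (0.101), control 3 (0.105), control 4 (0.0603), mutant 1 (0.0694), mutant 3 (0.0728) or mutant 4 (0.0643), each by the same edgeR test. With the Rfx6f/f controls alone, that is without controls 2 and 3, the log2 fold change was 0.45 (SE 0.17) and the adjusted p was 0.26.

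Idi1, which isomerises isopentenyl diphosphate to the primer of all isoprenoid chains, did not pass the test at either time. At 3 months, controls 1 to 4 had 18.5, 13.2, 16.1 and 15 CPM, and mutants 1 to 4 had 17.6, 19.0, 18.5 and 21.5 CPM. Control 1 lay within the mutant range and the 3 other controls below it. The log2 fold change was 0.30 (95% interval 0.04 to 0.56, adjusted p = 0.119 by edgeR), after 0.19 at 8 days (-0.09 to 0.48, adjusted p = 0.747).

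Fdft1 encodes squalene synthase, which commits farnesyl diphosphate to sterols. Its 3-month controls 1 to 4 had 158, 92.8, 122 and 127 CPM, and its mutants had 167, 166, 150 and 177 CPM. Only control 1 reached the mutant range. The log2 fold change of 0.42 (SE 0.14) had an adjusted p of 0.0947 in edgeR, and it passed the threshold in 2 of the 8 alternative settings, DESeq2 and the joint fit of all 15 libraries, with the lowest adjusted p at 0.033. At 8 days the mutants lay close together at 135 to 141 CPM and the controls at 101 to 135 CPM, and the log2 fold change was 0.21 (SE 0.10, adjusted p = 0.617).

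Of the exon length of Fdft1, 18.3% is shared with Ctsb on the opposite strand, and the strand setting of the counting is not given in the sources used here. Ctsb had group means of 437 to 455 CPM and log2 fold changes of -0.01 at 8 days and -0.02 at 3 months (adjusted p = 0.99 and 0.897, edgeR).

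Sqle, the squalene epoxidase and a rate-limiting step, was the flattest member. It had 188 to 220 CPM in the 8-day controls, 191 to 228 in the 8-day mutants, 187 to 241 in the 3-month controls and 212 to 238 in the 3-month mutants. Its log2 fold changes of 0.03 and 0.09 had 95% intervals of -0.17 to 0.23 and -0.10 to 0.28. Lss, the synthase that closes squalene epoxide into lanosterol, had 60.6 to 93.3 CPM in the 3-month controls and 79.4 to 109 in the mutants, with a log2 fold change of 0.31 (-0.02 to 0.63, adjusted p = 0.189). At 8 days that of Lss was 0.08 (-0.17 to 0.32, adjusted p = 0.934, all by edgeR).

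Dhcr7, the reductase of the last step, followed Srebf2 in its level across the cohorts. It had 36.9 to 46.7 CPM in the 8-day libraries and 20.4 to 30.1 CPM in the 3-month libraries, without overlap. Between genotypes its log2 fold change was 0.10 at 8 days (-0.10 to 0.31, adjusted p = 0.852) and 0.16 at 3 months (-0.12 to 0.44, adjusted p = 0.409, edgeR). The other members did not show this gap over all libraries: Sqle, Insig1, Fdft1, Lss and Idi1 each had 8-day and 3-month libraries at overlapping levels. Within controls and within mutants, Idi1 lay higher at 3 months without overlap. Its controls had 10.6 to 12.3 CPM at 8 days and 13.2 to 18.5 at 3 months. Its mutants had 11.1 to 14.8 and 17.6 to 21.5 CPM. Among mutants alone, Insig1 and Fdft1 were also higher at 3 months without overlap.

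Counted together, 0 of the 7 members were called at 8 days, at an adjusted p under 0.05, where 0.0915% of 17493 genes were called (0.0343% higher and 0.0572% lower). None had an unadjusted p under 0.05 there, against 8.8% of all genes, and DESeq2 and limma-voom also called 0. At 3 months 1 of 7 was called, against 9.28% of 17085 genes, and 3 of 7 had an unadjusted p under 0.05, against 29.4%. A share of 1 in 7 is near that background. All 7 fitted log2 fold changes were above 0 at both times, against 49.3% of all genes at 8 days and 51.2% at 3 months. Their median was 0.10 at 8 days and 0.30 at 3 months, beside -0.002 and 0.008 over all genes tested. The levels of the 7 genes were also correlated between libraries, so their shared sign is not 7 separate observations.

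**Figure D2:**
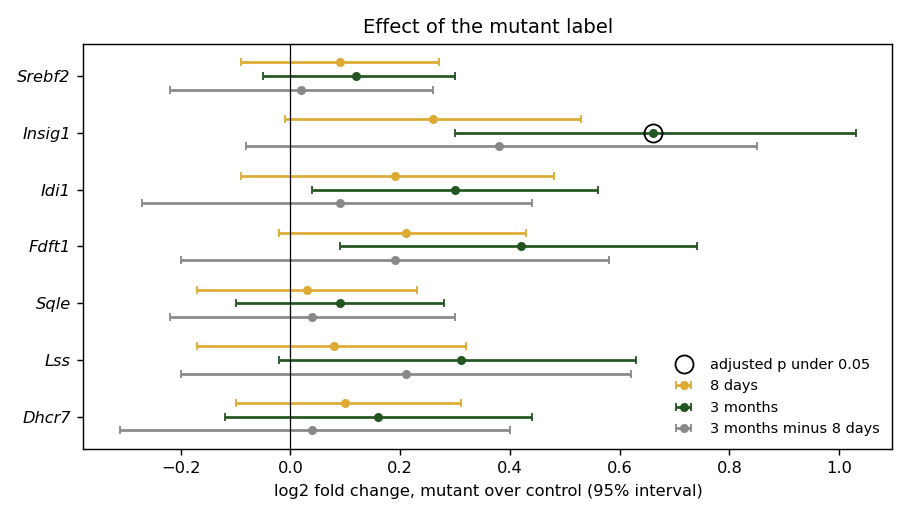
Log2 fold change of mutant over control for each matched gene (horizontal axis; points with 95% intervals from the edgeR fit) at 8 days, at 3 months, and the difference between them; the ring marks an adjusted p under 0.05. The points lie at or above 0.02, and the intervals of Insig1, Idi1 and Fdft1 at 3 months lie above 0.

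For the difference between the times, 0 of 7 members were called by edgeR, against 0.785% of 17959 genes (0.379% with a positive difference and 0.406% with a negative one), and none had an unadjusted p under 0.05, against 16.6%. DESeq2 and limma-voom called 0 as well. The estimates ran from 0.02 for Srebf2 to 0.38 for Insig1. Both control genotypes could be set against each other at 3 months, where each had 2 libraries. All 7 members were lower in Rfx6f/+ than in Rfx6f/f controls, by log2 values of -0.15 (Sqle) to -0.45 (Insig1). None was called (adjusted p = 0.674 to 0.814, edgeR), as was none of 17780 genes (0%), and 3 members had an unadjusted p under 0.05 (Fdft1, Insig1 and Srebf2), against 6.86% of all genes. Without the Rfx6f/+ controls, 0 of 7 members were called at 3 months, against 0.205% of 17552 genes (0.131% higher and 0.0741% lower), and Sqle, Dhcr7 and Srebf2 had log2 fold changes of 0.01, 0.01 and 0.02.

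Per kilobase of exon, which allows levels of different genes to be set side by side, the members fell into a higher and a lower set. In the 8-day controls, Insig1 (40.3 ± 6.46 CPM per kb, SD, n = 3), Srebf2 (38.7 ± 1.93), Sqle (36.3 ± 3.01) and Fdft1 (28.4 ± 4.07) led. Dhcr7 (6.89 ± 0.534), Lss (6.70 ± 1.08) and Idi1 (3.19 ± 0.289) followed. Insig1, Srebf2 and Sqle lay within about 1 or 2 SD of their neighbours in this order, as did Dhcr7 and Lss, while Fdft1 lay below Sqle by more than the SD of either, and the gap between Fdft1 and Dhcr7 was far wider than the spread.

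In the 3-month mutants the order of levels per kb was Insig1 (79.3 ± 13.6 CPM per kb, SD, n = 4), Sqle (40.2 ± 2.21), Fdft1 (39.0 ± 2.56), Srebf2 (19.4 ± 1.13), Lss (8.42 ± 1.22), Idi1 (5.47 ± 0.481) and Dhcr7 (4.65 ± 0.479). Sqle and Fdft1 did not differ beyond their spread. Srebf2, level with Sqle at 8 days, here stood below Fdft1 by far more than the spread. Exon lengths came from the GENCODE M21 gene models on GRCm38, while the notes of the submitters name mm9, so these levels hold only as far as the models match.

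The whole pathway was described with a list of 22 sterol synthesis enzymes, of which 21 were tested, the members Idi1, Fdft1, Sqle, Lss and Dhcr7 among them. At 3 months 5 of the 21 rose and 0 fell, against 4.96% of all genes called higher and 4.32% called lower. All 5 act between lanosterol and cholesterol, where 5 of 10 tested genes were called, while 0 of 8 were called from acetyl-CoA to farnesyl diphosphate and its branch, and 0 of 3 from squalene formation to lanosterol. These stretches were chosen after the values were seen, and the difference between them was not tested. All 5 are also among the 16 enzymes outside the members, whose median log2 fold change was 0.15, with 12 of 16 above 0, against 51.2% of all genes and a median of 0.008.

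Cyp51, the demethylase that takes lanosterol as its substrate, rose most. Its 3-month controls 1 to 4 had 268, 186, 231 and 213 CPM and its mutants 399, 325, 358 and 403 CPM. The lowest mutant was well above the highest control, and the log2 fold change was 0.74 (SE 0.12, adjusted p = 0.0115, edgeR). Cyp51 was called in all 8 fits that left out 1 library.

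Msmo1, Nsdhl and Hsd17b7 follow each other in removing the remaining methyl groups of the sterol ring. Msmo1 had 286, 192, 239 and 212 CPM in controls 1 to 4 and 378, 320, 307 and 362 in the mutants, and its log2 fold change was 0.57 (SE 0.13, adjusted p = 0.0297). Nsdhl (27.9 to 35.0 CPM in controls, 35.7 to 42.5 in mutants) rose by 0.35 (SE 0.09, adjusted p = 0.0419), and Hsd17b7 (60 to 74.8 against 79.0 to 103) by 0.39 (SE 0.10, adjusted p = 0.0404). Sc5d, a desaturase of the sterol ring, rose by 0.36 (SE 0.08, adjusted p = 0.0342, all by edgeR), from 88.6 to 107 CPM in controls to 108 to 132 in mutants. In each of these 4 genes the lowest mutant was above the highest control, and in Sc5d and Nsdhl the margin was about 1 CPM. Of the 21 enzymes, 5 had every mutant above every control and 3 had every mutant below, where 8.76% and 10.6% of all genes did.

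The 3 enzymes with every mutant below every control were Ebp, Lbr and Ggps1, and none of them was called. Ebp, the isomerase of the sterol ring, had 64.6 to 73.4 CPM in the 3-month controls and 60.1 to 61.2 in the mutants (log2 fold change -0.17, adjusted p = 0.0951). Lbr, a sterol reductase that is also a receptor of the nuclear lamina, had 149 to 167 CPM in controls and 121 to 146 in mutants (-0.22, adjusted p = 0.0781). Ggps1, which makes geranylgeranyl diphosphate on the branch away from sterols, had 31.3 to 31.7 and 26 to 30.8 CPM (-0.09, adjusted p = 0.38). Tm7sf2, which shares the reductase step with Lbr, had a log2 fold change of -0.13 (adjusted p = 0.497, all by edgeR).

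**Figure D3:**
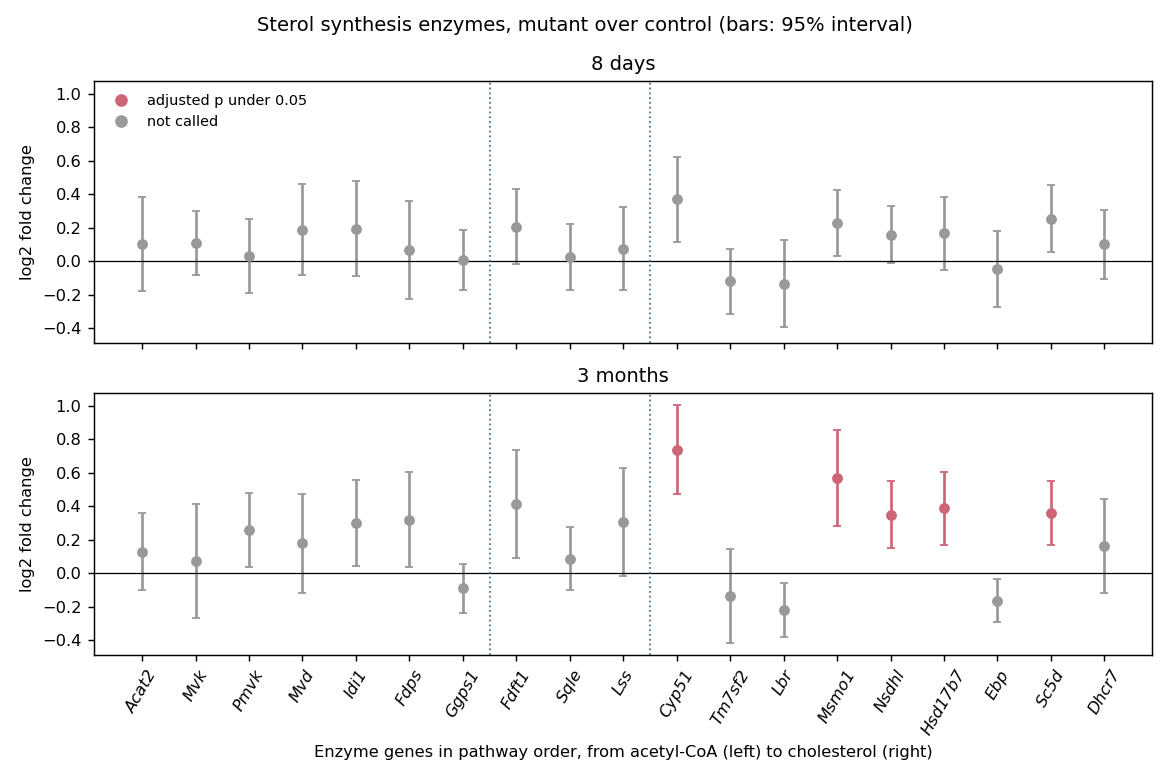
Log2 fold change of mutant over control (vertical axis, with 95% intervals) for tested sterol synthesis enzyme genes in pathway order at 8 days and 3 months; dotted lines mark squalene formation and lanosterol, and coloured points have an adjusted p under 0.05. The 5 coloured genes at 3 months lie between 0.35 and 0.74, all right of lanosterol, a division chosen after the values were seen.

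The count of called enzymes moved with the animals in the fit, as that of all genes did. It was 4 without control 1, 1 without control 2, 3 or 4, 1 without mutant 1, 3 without mutant 2, and 2 without mutant 3 or mutant 4. Msmo1 kept its call without control 1, mutant 2 or mutant 3, Sc5d without control 1 or mutant 2, Nsdhl without control 1 and Hsd17b7 without mutant 4, and each lost it without any other 3-month library (adjusted p = 0.0505 to 0.11). With the Rfx6f/f controls alone the count was 0, and Cyp51 then stood at 0.63 on the log2 scale (SE 0.13, adjusted p = 0.129, edgeR). At 8 days 0 of the 21 were called by edgeR, DESeq2 or limma-voom, which is near the background for edgeR, with 0.0915% of all genes called. Cyp51 had 187, 236 and 211 CPM in the 8-day controls and 315, 266, 242 and 272 CPM in the mutants, without overlap, and the log2 fold change was 0.37 (SE 0.11, adjusted p = 0.46, edgeR). Of the 21, 2 had mutants above all controls at 8 days (Cyp51 and Sc5d), against 3.98% of all genes in this direction.

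Markers of other cell types also differed between the same 3-month libraries, and their counts of calls stand against 4.96% of all genes called higher and 4.32% called lower. Of 7 markers of enterocytes, the absorptive cells, 0 were called by edgeR, while 6 were above 0 (median log2 fold change 0.58) and 4 had an unadjusted p under 0.05, against 29.4% of all genes. Apoa1, an apolipoprotein, had 1460 to 2620 CPM in controls and 2210 to 3460 in mutants (0.58, adjusted p = 0.0966), and Anpep, a brush border peptidase, 2830 to 3490 and 1470 to 3080 (-0.51, adjusted p = 0.181). The summed enterocyte level was 7130 to 9870 CPM in controls and 6990 to 11400 in mutants, so that the groups overlapped. The summed level of 5 goblet cell markers was 14700 to 16800 CPM in controls and 19200 to 21400 in mutants, with Muc2 called higher (log2 fold change 0.95, adjusted p = 0.0144, edgeR) as 1 of 5 and all 5 above 0. That of 6 lymphocyte markers was 2190 to 3090 CPM in controls and 1200 to 1710 in mutants, with 1 of 6 called lower. Of 7 ileal epithelium markers, 2 were called lower, Fabp6 and Slc51b, and the summed level was 7970 to 8740 CPM in controls and 4900 to 7140 in mutants. Fabp6 alone had 1970 to 2690 CPM in controls and 557 to 1150 in mutants. The markers not called overlapped between the groups, among them Vil1 (1920 to 2250 and 1590 to 2350 CPM), Cdh1 (659 to 746 and 610 to 742) and Epcam (1620 to 2130 and 1480 to 2000). Of the 7, 0 had a log2 fold change above 0. Of 10 crypt and proliferation markers 1 was called lower (Top2a), with summed levels of 1480 to 1600 and 1200 to 1500 CPM. All 6 smooth muscle markers were above 0 (median 0.37) and 0 were called, with summed levels of 1530 to 1840 and 1640 to 2980 CPM. Of 5 myeloid markers 2 were called, Csf1r higher (log2 fold change 0.60, adjusted p = 0.0212) and Itgam lower (-0.82, adjusted p = 0.0193, edgeR). Of their exon lengths, Itgam shares 68.7% with Gm49368 on the same strand and Csf1r 15.1% with Hmgxb3 on the opposite strand, so these values are uncertain. The summed myeloid levels overlapped, at 314 to 390 CPM in controls and 286 to 375 in mutants. None of 6 markers of enteric neurons and glia (6 above 0, median 0.20, 1 with an unadjusted p under 0.05) and none of 4 Paneth cell markers (2 above 0, median -0.09, 1 with an unadjusted p under 0.05) was called by edgeR. In bulk tissue, fewer cells of a type and less RNA per cell cannot be told apart. The part of these shifts in the levels of Insig1, the enzymes and Npc1l1 was not tested.

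Adipocyte markers, which would mark attached fat, differed widely between libraries. Their summed level was 71.9, 31.3, 21.8 and 113 CPM in the 3-month controls 1 to 4 and 80.8, 80.8, 141 and 92.1 CPM in the mutants, so that the Rfx6f/+ controls were lowest. Cidec alone gave 11.7 to 24.8 CPM of this in controls and 41.2 to 57.7 in mutants. Adipoq had 13, 3.02, 0.0383 and 20.7 CPM in controls 1 to 4 and 2.39, 6.49, 15.9 and 6.88 in the mutants. The sum thus did not rank the libraries as Adipoq did. The defining genes Adipoq and Plin1 had log2 fold changes of -0.20 (SE 0.99) and -0.02 (SE 0.91) at 3 months, and 1 of the 5 markers, Cidec, was called higher (1.59, adjusted p = 0.00915, edgeR). The part of these markers in the members' levels was not tested.

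The list of genes that control SREBP activity held 1 call at 3 months. Of its 10 regulators, Srebf2 among them, this was Insig1, and their median log2 fold change was -0.05. A share of 1 in 10 is near the 9.28% of all genes that were called. Scap, the escort, had 67 to 69 CPM in the 3-month controls and 60.4 to 66.6 in the mutants, so that every mutant was below every control, as in 10.6% of all genes. Its log2 fold change was -0.05 (95% interval -0.16 to 0.06, not called), and that of Insig2, the second retention protein, -0.10 (adjusted p = 0.442, edgeR). The count at 8 days was 0 of 10, with a median of 0.03 beside -0.002 over all genes, and with 0.0915% of all genes called there a count of 0 is at the background.

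Of 8 further targets of SREBP2, 1 rose at 3 months, with a median of 0.24. A count of 1 in 8 is near the background, since 4.96% of all genes were called higher and 9.28% in all. This was Npc1l1, the sterol transporter of the enterocyte brush border. It had 365, 299, 297 and 384 CPM in controls 1 to 4 and 575, 537, 432 and 519 CPM in mutants 1 to 4, without overlap, with 0.63 as its log2 fold change (SE 0.12, adjusted p = 0.0192, edgeR). As with Srebf2, every 3-month library was below every 8-day library, where Npc1l1 had 636 to 725 CPM in controls and 687 to 1090 in mutants. The call for Npc1l1 was lost without control 2 or control 3 (adjusted p = 0.0591 and 0.0598), and with the Rfx6f/f controls alone (log2 fold change 0.47, adjusted p = 0.172).

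Of 12 targets of SREBP1, the relative that drives fatty acid synthesis, 1 rose and 1 fell at 3 months, against 4.96% and 4.32% of all genes, so both counts are near the background. Their median was 0.05. Me1, the malic enzyme that supplies NADPH, had 16.9 to 30.5 CPM in controls and 39.3 to 116 in mutants (log2 fold change 1.56, SE 0.33, adjusted p = 0.027). Scd2, a fatty acid desaturase, had 282 to 589 CPM in controls and 185 to 274 in mutants (-0.93, SE 0.23, adjusted p = 0.04, edgeR). The call for Me1 was lost without control 1, 2 or 3 or mutant 3 (adjusted p = 0.059 to 0.0773), and that for Scd2 without any library but control 2 (adjusted p = 0.0531 to 0.0976). Scd2 was called in all 8 alternative settings. With the Rfx6f/f controls alone it had -1.27 (adjusted p = 0.0353, edgeR), and Me1, not called, had 1.31 (adjusted p = 0.22). Scd2 had 589 and 559 CPM in the Rfx6f/f controls 1 and 4, and 282 and 389 in the Rfx6f/+ controls 2 and 3. At 8 days 0 of the 12 were called by edgeR (0.0915% of all genes were), 3 were above 0 and the median was -0.11. At that time 3 of 12 had every mutant below every control, against 3.7% of all genes. Elovl6, a fatty acid elongase, had 101 to 138 CPM in controls and 72 to 88.4 in mutants (log2 fold change -0.56, adjusted p = 0.287), and Fads2, a desaturase, 79.4 to 90.5 and 65.9 to 77 (-0.20, adjusted p = 0.514, edgeR). Scd2 had 375 to 638 CPM in controls and 280 to 330 in mutants, and a log2 fold change of -0.76 (adjusted p = 0.278 by edgeR), which DESeq2 called.

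Of 8 targets of LXR, the receptor that answers to excess sterol, 3 fell and 0 rose at 3 months, against 4.32% of all genes called lower and 4.96% higher. The list did not share a sign: its median log2 fold change was -0.07, and 3 of 8 were above 0. Abca1, which exports cholesterol, had 65.8 to 74.6 CPM in controls and 45.7 to 55.2 in mutants (log2 fold change -0.47, SE 0.07, adjusted p = 0.00938). Abcg1, a second exporter, had 10.6 to 12.5 and 5.63 to 8.20 CPM (-0.84, SE 0.13, adjusted p = 0.0102). Smpdl3a had 144 to 203 and 99.1 to 125 CPM (-0.66, SE 0.12, adjusted p = 0.0166, edgeR). Abcg5 and Abcg8, the exporters of sterol to the gut lumen, had 0.02 and -0.06. Lpcat3, a phospholipid acyltransferase, had 120 to 141 CPM in controls and 146 to 196 in mutants, without overlap, and did not pass the test (0.38, SE 0.10, adjusted p = 0.0513, edgeR). At 8 days 0 of 8 were called by edgeR, where 0.0915% of all genes were, and 1 by DESeq2, which called 178 genes in all against 16 by edgeR. The calls for Abca1 and Abcg1 were kept in all 8 fits that left out 1 library, and that for Smpdl3a was lost without control 3 (adjusted p = 0.0545). With the Rfx6f/f controls alone 0 were called, and Abca1 and Smpdl3a had log2 fold changes of -0.45 and -0.63.

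Between animals of the same group the levels of the members were correlated, though no pair passed the test once the control genotypes were centred separately. Levels were first taken as log2 CPM less the group mean, over 15 libraries, and permuted within groups, with the Rfx6f/f and Rfx6f/+ libraries as 1 group of 3-month controls. All 21 pairs of the 7 genes had a Pearson r above 0, from 0.20 to 0.83 with a median of 0.72. After Benjamini-Hochberg adjustment over the 21 pairs, 14 had a permutation p under 0.05 by Pearson and 6 by Spearman. The closest pair was Sqle and Idi1, with r = 0.83 (adjusted p = 0.023, permutation test) and rho = 0.77 (adjusted p = 0.034). Insig1 and Lss had r = 0.83 (adjusted p = 0.023) and rho = 0.70 (adjusted p = 0.056). All genes of a library share its scaling factor and its cells, so the pairs are not independent.

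The 3-month controls hold both genotypes, and all 7 members were lower in the Rfx6f/+ libraries. With the mean of each control genotype removed, a setting chosen after seeing the data, 19 of 21 pairs had r above 0, from -0.09 to 0.80 with a median of 0.65, and 0 of 21 had an adjusted p under 0.05 by Pearson or Spearman. Sqle and Idi1 then had r = 0.80 (adjusted p = 0.076, permutation test) and rho = 0.83 (adjusted p = 0.069). Insig1 and Lss had r = 0.79 (adjusted p = 0.076) and rho = 0.79 (adjusted p = 0.071). The lowest were Insig1 and Srebf2, at -0.09, and Lss and Srebf2, at -0.05. In this setting 2 libraries of each control genotype can only be exchanged with each other, which leaves fewer permutations.

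With only the group means removed, Srebf2 had the lowest values, with a mean r of 0.42 with the other members, where the other 6 genes had 0.64 to 0.73. Its pair with Insig1 had r = 0.25 (adjusted p = 0.48, permutation test) and rho = 0.26 (adjusted p = 0.40). Within cohorts this r was -0.66 over 7 libraries at 8 days and 0.71 over 8 at 3 months, and that of Srebf2 and Lss was -0.71 and 0.66. Dhcr7 was the exception, with r = 0.80 with Srebf2 (adjusted p = 0.023) and rho = 0.79 (adjusted p = 0.020), and r = 0.72 (adjusted p = 0.076) with the genotypes centred separately. All 21 pairs were above 0 within the 3-month cohort and 16 of 21 within the 8-day cohort.

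**Figure D4:**
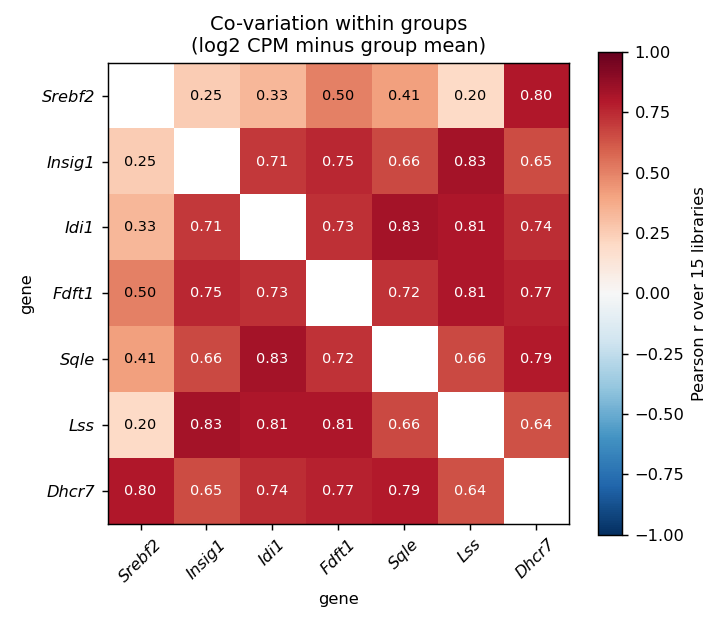
Pearson r between the matched genes over 15 libraries, on log2 CPM less the group mean (colour scale from -1 to 1, values printed). The row of Srebf2 is palest, from 0.20 with Lss to 0.80 with Dhcr7, and the other pairs lie between 0.64 and 0.83.

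The libraries farthest out in this variation were a pair of 3-month controls. On the mean standardised level of the 7 genes less the group mean, control 1 stood at 1.94 and control 2 at -1.61, with the 13 other libraries between -0.71 and 0.95. With the 2 libraries farthest from the median of the first gene left out of each pair, which need not be these controls, r ran from -0.24 to 0.79. It stayed at 0.69 for Sqle and Idi1, 0.66 for Insig1 and Lss and 0.79 for Sqle and Dhcr7, and was -0.17 for Insig1 and Srebf2. Control 1 was Rfx6f/f and control 2 Rfx6f/+, and their totals were 29431999 and 31799316 counts. With the genotypes centred separately they stood at 1.18 and -0.80.

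Of 17016 other genes, those most like the members in this variation included several of the same pathway. Of the 10 highest Pearson values with the mean standardised level of the members, over 15 libraries and less the group means, 9 were those of Mvk (0.89), Msmo1 (0.88), Apol10b (0.85), Mvd (0.83), Tbc1d32 (0.82), 5033430I15Rik (0.82), Hint3 (0.81), Smco4 (0.81) and Cyp51 (0.80). Of these 9, 4 encode sterol synthesis enzymes (Mvk, Msmo1, Mvd and Cyp51), and the Spearman values of the 9 were 0.67 to 0.80. With the control genotypes centred separately the values of these 9 were 0.69 (Smco4) to 0.89 (Msmo1). Abca1 had -0.34 and Scap -0.12, and no test was made on these values.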

How the data were processed

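RNA from the ileum of 15 mice was sequenced as total RNA with ribosomal RNA removed (Ribozero), as the labels' protocols say, although the molecule label names polyadenylated RNA. The authors deposited raw read counts per Ensembl gene, with 1 table for each cohort. The submitters' processing notes name bcl2fastq 2.17.1.14, Bowtie 1.0.0, Bowtie2 2.1.0, TopHat2 2.0.10, HTSeq 0.6.1 and the build mm9, without stating the role of each or a strand setting. Extraction used 1 of 2 methods, not assigned to samples.

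Groups came from the genotype and time labels, and the columns by sample title. Replicates were numbered in deposit order. Within each group the counts of every pair of libraries differed beyond sampling noise (lowest chi-square per degree of freedom 12.1). Symbols matched 87.45% of 37620 identifiers. Identifiers without a symbol held 0.675% of the counts and stayed in the fits.

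The cohorts were fitted separately by quasi-likelihood in edgeR 4.0.16 under R 4.3.3, after filterByExpr with a minimum count of 10 and TMM scaling, and p-values were adjusted by Benjamini-Hochberg over all genes tested. A gene was called at an adjusted p under 0.05. The difference between times was the interaction contrast over 15 libraries, and Rfx6f/+ was set against Rfx6f/f controls with 3 groups in the model. All tests were two-sided. CPM use TMM factors over the 15 libraries, and log2 CPM a prior count of 2. Permutations numbered 100000. The script was tested on simulated data first.

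Alternatives were DESeq2 1.42.0, limma-voom (limma 3.58.1), RLE scaling, library sizes without the 20 most counted genes, no filter, 10 counts in every sample, the joint fit, no Rfx6f/+ controls, and every library omitted in turn. For the co-variation, the mean of each control genotype was removed in 1 alternative. The genes named from the other lists were those called, at most 6 per list and comparison by size of change. Ebp, Lbr, Ggps1, Tm7sf2, Scap, Insig2, Abcg5, Abcg8, Lpcat3, Elovl6, Fads2 and the cell type markers fell outside this rule and were named after their values were seen. The members, the lists and the tests were chosen with earlier results of these data known. Of the planned 28 pairs of members, 21 could be formed. Single values of a few list genes are not reported here or plotted, though the list counts hold them. Figures were drawn with matplotlib 3.10.9.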

Additional observations from a re-analysis of the deposited data

Results flagged for a closer look

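Some values stood apart and are given without an explanation. Among the 3-month controls, Sc5d had 107 CPM in control 1 and 88.6 to 91.7 CPM in the 3 others, and Abcg1 had 10.6 CPM in control 1 and 12.3 to 12.5 CPM in the others. Control 1 was thus high for the sterol desaturase and low for the sterol exporter. Among the 8-day mutants, Abca1 had 94.0 CPM in mutant 3 and 69.9 to 71.5 CPM in the others. In each case the gap to the nearest library exceeded Dixon's 95% limit for 4 samples. Of 57 such checks 3 passed the limit, and chance alone gives about 2.85, at 1 in 20. None of the 7 members was among them.

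The response of both LXR targets Abcg1 and Smpdl3a differed between the time points in the interaction test. For Abcg1 the log2 fold change at 3 months less that at 8 days was -1.01 (SE 0.20, adjusted p = 0.0473, edgeR), with levels of 9.01 to 10.8 CPM in the 8-day controls and 9.29 to 13.9 CPM in the 8-day mutants. For Smpdl3a it was -0.78 (SE 0.17, adjusted p = 0.0487), with 91.8 to 101 and 85.8 to 113 CPM at 8 days. Both were lower in the mutants at 3 months and overlapped at 8 days. The call for Abcg1 was kept in 3 of the 15 fits that left out 1 library (without mutant 2 or mutant 4 at 3 months or mutant 1 at 8 days), and that for Smpdl3a in 5 (also without control 4 at 3 months or mutant 2 at 8 days). The adjusted p of each reached 0.129 at most.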

How the results depend on the processing

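The members gave 0 calls at 8 days in all 7 settings and all 7 fits that left out 1 library, and 0 for the difference between times in 6 settings and 15 such fits. At 3 months the count of 1 became 2 with DESeq2 and with the joint fit (Insig1 and Fdft1), 0 with Rfx6f/f controls only, and 0 to 1 with 1 library left out. The 5 called sterol enzymes at 3 months became 0 to 7 over the 8 settings, with 0 for Rfx6f/f controls only, and 1 to 4 with 1 library left out. Other SREBP2 targets gave 1 call at 8 days with DESeq2, and at 3 months 2 with DESeq2, 0 with Rfx6f/f controls only and 0 to 2 with 1 left out. LXR targets gave 1 call at 8 days with DESeq2 and 0 to 1 with 1 left out. At 3 months their count of 3 became 0 to 4 over the 8 settings, with 0 for Rfx6f/f controls only, and 2 to 3 with 1 left out. For the difference LXR targets gave 1 with limma-voom, RLE scaling or library sizes without the 20 most counted genes and 0 to 2 with 1 left out.

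Genes called in all moved further: at 8 days from 16 to 178 (DESeq2), 27 (no filter), 25 (joint fit) and 8 to 200 with 1 library left out; at 3 months from 1586 to 2983 (DESeq2), 36 (Rfx6f/f controls only) and 391 to 1521; for the difference from 141 to 1017 (DESeq2), 41 (limma-voom), 78 (without the 20 most counted genes), 223 (no filter), 248 (10 counts in every sample) and 10 to 749. The cause was not tested, except that fewer libraries or controls were in the fit.

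With the mean of each control genotype removed, 0 pairs of members passed by Pearson, from 14, and 0 by Spearman, from 6; the smaller sets of libraries to permute are part of this setting.

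Signs reversed for values near 0 when 1 library was left out: at 8 days for Lss (range -0.003 to 0.223) and Sqle (-0.025 to 0.102), and for the difference for Dhcr7 (-0.018 to 0.159), Srebf2 (-0.023 to 0.084) and Sqle (-0.028 to 0.108). The log2 fold change of Me1 at 8 days, 0.187 in the main fit, also reversed, to -0.157 without mutant 1 (range -0.157 to 0.413). That library had 30.7 CPM of Me1, against 9.24 to 19.8 in the other 8-day mutants. Of the members' values, 95 of 98 at 8 days, 103 of 112 at 3 months and 137 of 147 for the difference kept direction and side of the threshold. Scalings moved the median of all genes by under 0.1. No paired analysis was possible because the replicate numbers only follow deposit order.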

Other observations

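Some genes of the lists had groups that did not overlap at 1 time without passing the test. Lpcat3, which loads polyunsaturated chains into phospholipids, had a log2 fold change of 0.02 at 8 days (-0.16 to 0.19, adjusted p = 0.986, edgeR quasi-likelihood test), beside 0.38 at 3 months (95% interval 0.15 to 0.61). Mylip, a ubiquitin ligase, had 0.55 at 8 days (0.22 to 0.88, adjusted p = 0.448), with every mutant above every control (as in 3.98% of all genes), and 0.18 at 3 months (-0.07 to 0.42, adjusted p = 0.302). Stard4, a carrier of cholesterol between membranes, had 0.33 at 8 days (0.19 to 0.48, adjusted p = 0.201) with mutants above all controls and 0.26 at 3 months (-0.07 to 0.60, adjusted p = 0.265). These genes were named after their values were seen.

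Slc51b, a subunit of the bile acid exporter of the ileum, was lower in the mutants without overlap at both times, by log2 values of -0.28 at 8 days (adjusted p = 0.378) and -0.70 at 3 months (adjusted p = 0.00613, edgeR). Fabp6, the ileal bile acid carrier, had 1970, 2690, 2410 and 2480 CPM in the 3-month controls and 941, 844, 557 and 1150 CPM in the mutants, and its log2 fold change was -1.44 (SE 0.20, adjusted p = 0.00873). At 8 days its groups overlapped, with -0.33 (SE 0.22, adjusted p = 0.773).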
